A study of Mus musculus with 12 samples.

Results

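Genes of voltage-gated sodium and calcium channels were examined in mouse hearts that express NOTCH2NLC with 98 GGC repeats. The members were all rows of the count table whose symbol is Scn with a number and the letter a or b, or starts with Cacn, and no measured value entered this choice. This gave 40 of 25171 loci, all of them protein coding in GENCODE M21. Of these, 14 belong to sodium channels and 26 to calcium channels, and 20 encode pore-forming and 20 auxiliary subunits.

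Hearts of 12 mice were sequenced, 3 in each of 4 groups. All mice carried the conditional transgene at the Rosa26 site, in which a stop sequence flanked by loxP sites precedes NOTCH2NLC-(GGC)98 until Cre recombinase removes it. EIIa-tg mice (E2a in the labels) also carried E2a-Cre, which acts in all tissues, and their littermate controls without this Cre are called EIIa-ctl here. Both EIIa groups were taken at postnatal day 30. Both Myh6 groups are described as carrying Myh6-creERT2, a Cre made in cardiomyocytes and activated by tamoxifen. From day 60 they received 3 injections, of tamoxifen at 75 mg per kg in Myh6-tg and of corn oil alone in Myh6-ctl, and hearts were taken at day 90. The transgene cannot be told apart from the Cre in the EIIa comparison, or from tamoxifen and from a difference in the creERT2 transcript (given with the libraries) in the Myh6 comparison. Between the models, age, Cre line, the cells that recombine and the time since recombination all differ.

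A voltage-gated sodium channel consists of a pore-forming alpha subunit, which opens when the membrane is depolarised, and small beta subunits that tune its gating and its place in the membrane. In working heart muscle the sodium current starts the action potential and carries it from cell to cell. Calcium channels have a pore-forming alpha1 subunit, a cytoplasmic beta subunit that promotes transport to the membrane and opening, and an extracellular alpha2delta subunit. The L-type channel encoded by Cacna1c lets in the calcium that triggers contraction, whereas T-type channels open at more negative potentials and are known from pacemaker cells and from the fetal heart.

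Between 38343106 and 50969834 counts were obtained per heart. Levels are given as normalised CPM, in which counts are divided by library size and by TMM factors over all 12 hearts, and genes are compared with each other only by FPKM, which also corrects for transcript length. Summed cardiomyocyte markers (8 genes, with Myh6, Tnnt2 and Ryr2) were between 10034 and 47124 normalised CPM, as in heart tissue, although the labels' extraction text names brain. Esr1, the estrogen receptor gene of which tamoxifen-inducible Cre proteins contain a part, had 1031 to 2331 normalised CPM in the libraries labelled Myh6-ctl and 1.00 to 2.52 in those labelled Myh6-tg. The latter level is near the 0.408 to 1.23 of the EIIa hearts and goes against a creERT2 transcript in Myh6-tg, and the groups are used as labelled. The 3 replicates of EIIa-tg carry different genotype names and were grouped by their titles. Some libraries stood apart within their group. Summed cardiomyocyte markers were 31405 in Myh6-tg replicate 1 against 13053 and 10034 in replicates 2 and 3, and 34360 in EIIa-tg replicate 2 against 19920 and 20065 in replicates 1 and 3. Mitochondrially encoded genes took 15.5 to 18.6% of the counts in Myh6-tg hearts and 28.5 to 38.3% in the others. Replicate 1 of each group had 4224 to 7307 counts on Y-linked genes and the other hearts at most 2.

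Among the calcium channel genes Cacna2d1, which encodes the main alpha2delta subunit, had the highest level per transcript length, with a mean over the 12 hearts of 16.0 FPKM. The leading gene of the calcium beta subunits, Cacnb2, followed with 9.32 FPKM and Cacna1c with 8.09 FPKM. Of the sodium channel genes Scn7a, an atypical alpha subunit that senses the extracellular sodium concentration, had 6.30 FPKM. Other roles of calcium channel genes were led by Cacng7 (4.58 FPKM), of a gamma family best known for regulating glutamate receptors, by the T-type pore Cacna1g (1.05 FPKM) and by Cacna1a (0.263 FPKM), the pore of neuronal P/Q-type channels. Ranges over the hearts overlapped between Cacna2d1 (9.26 to 21.7 FPKM), Cacnb2 (3.56 to 14.0) and Cacna1c (2.95 to 14.4). Those of Cacng7 (lowest 2.35 FPKM) and Cacna1g (highest 1.51 FPKM) did not. Scn4b, a beta subunit that is linked to the resurgent and late sodium currents, averaged 2.20 FPKM. Scn9a and Cacng3 were at 0 counts in every heart, where 3 counts correspond to 0.0589 to 0.0782 CPM, and this floor covers counting error only.

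**Figure D1:**
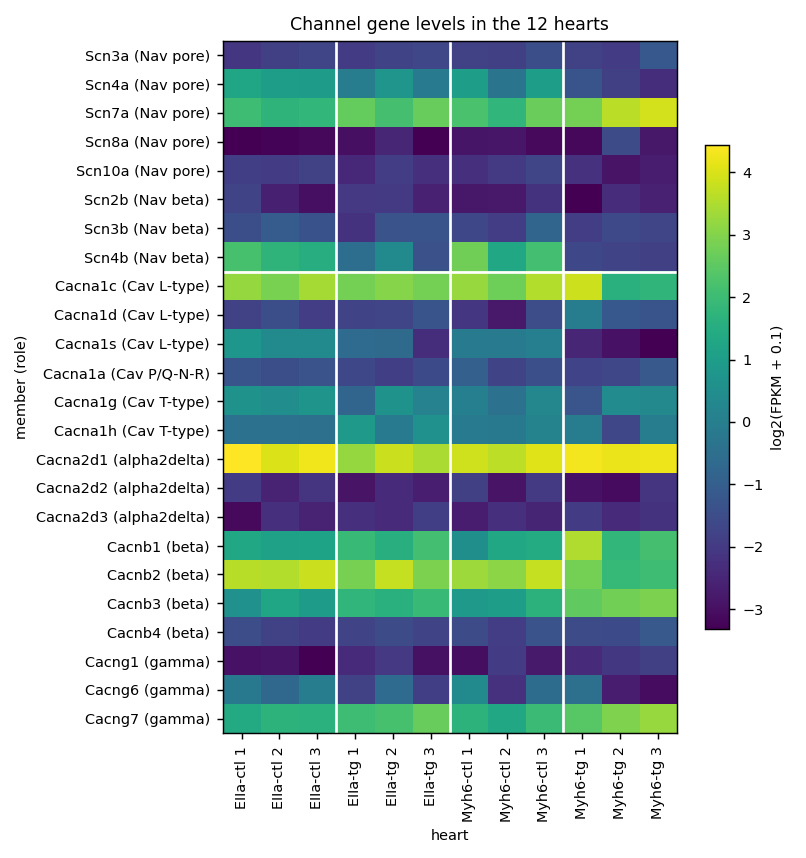
Levels of 24 members that reached 0.1 FPKM in a heart, as log2(FPKM + 0.1) by colour, with members in rows (role in brackets) and the 12 hearts in columns. Cacna2d1 (mean 16.0 FPKM) is the brightest row, and the Cacna1c row is darker in Myh6-tg replicates 2 and 3 than in replicate 1.

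In EIIa-tg hearts at day 30 the sodium channel beta subunit gene Scn4b, the alpha2delta gene Cacna2d1 and the pores Scn4a and Cacna1s fell. Scn4a and Cacna1s encode the sodium and L-type calcium pores that are best known from skeletal muscle. The largest fall was that of Scn4b, to a fold of 0.179 of controls. Cacna1c had a log2 fold change of -0.50 and did not pass the threshold.

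Genes were called at a Benjamini-Hochberg adjusted p under 0.05 in edgeR's quasi-likelihood test over all genes tested. Of the 40 members 25 passed the filter on low counts, and 6 of them were called, 1 higher and 5 lower. Of all 14908 genes tested 17.0% were called, 8.65% higher and 8.30% lower. The median log2 fold change was -0.50 over the 25 members and 0.02 over all genes. By part, 3 of 12 pore-forming members tested fell and none rose, while 1 of 13 auxiliary members rose and 2 fell. The count depended on which hearts were in the fit. It was 0 without EIIa-ctl replicate 1, EIIa-ctl replicate 3 or EIIa-tg replicate 1, it was 2 without EIIa-tg replicate 3, and it was 13 without EIIa-tg replicate 2. At the study's stricter thresholds (adjusted p below 0.01, log2 fold change beyond 1 or -1) edgeR called 0 members (14 of the 25 had an unadjusted p under 0.05) and DESeq2, the tool of the study, 3 members, Scn4b, Scn4a and Cacna1s. At an adjusted p under 0.05 alone DESeq2 called 10 members, among 3539 genes called in all. With a covariate for Y-linked counts edgeR called 4 members.

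Scn4b had 25.8, 17.3 and 15.8 normalised CPM in EIIa-ctl replicates 1 to 3 and 3.03, 6.14 and 1.31 in EIIa-tg. Every transgenic heart lay below every control, with replicate 2 nearest. The log2 fold change was -2.48 (SE 0.47, adjusted p = 0.0194). The call was lost without EIIa-ctl replicate 1 (adjusted p = 0.0824), EIIa-ctl replicate 3 (0.0792) or EIIa-tg replicate 1 (0.0701).

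For Cacna2d1, whose product helps to place the calcium channel at the cell surface, the controls had 181, 129 and 158 normalised CPM and the transgenic hearts 68.1, 105 and 73.5. The log2 fold change of -0.92 (SE 0.19, adjusted p = 0.0227) went with groups that did not overlap. Scn4a had 17.4, 13.6 and 13.8 normalised CPM in controls against 5.94, 10.6 and 5.03 (log2 fold change -1.05, SE 0.27, adjusted p = 0.0373). Cacna1s was at 11.4, 7.97 and 8.48 against 3.58, 3.48 and 0.624 (log2 fold change -1.86, SE 0.52, adjusted p = 0.0446). Both genes were lower in all 3 transgenic hearts than in any control. Their calls were lost in edgeR with the Y-linked covariate (adjusted p = 0.059 for Scn4a and 0.0554 for Cacna1s) and with all 12 hearts in one fit (0.189 and 0.155). Without EIIa-tg replicate 2 all 3 genes were called, and without EIIa-ctl replicate 1, EIIa-ctl replicate 3 or EIIa-tg replicate 1 none was (adjusted p = 0.0767 to 0.141 in edgeR). Without EIIa-ctl replicate 2 Cacna2d1 alone was called (0.0299), and without EIIa-tg replicate 3 Cacna1s alone (0.0445).

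Members just short of the threshold were found in both directions. Cacna1h, a T-type pore, had 6.19, 5.97 and 5.90 normalised CPM in controls and 14.7, 6.89 and 11.0 in EIIa-tg hearts (log2 fold change 0.84, SE 0.25, adjusted p = 0.0505). The beta subunit gene Cacnb3 had 4.24, 6.28 and 5.60 against 8.58, 7.57 and 8.53 (log2 fold change 0.61, adjusted p = 0.0511), and Cacng7 had 6.74, 7.58 and 7.66 against 9.07, 10.2 and 12.7 (0.54, adjusted p = 0.0512). Cacna1c had 131, 101 and 135 against 91.2, 96.5 and 73.0 (log2 fold change -0.50, SE 0.15, adjusted p = 0.0513). Groups did not overlap for any of these genes, although in Cacna1c the nearest hearts of the groups were close, at 96.5 and 101. The share of all genes that separate in this way was not counted. Of all 14908 genes tested in this comparison 5204 had an unadjusted p under 0.05 in edgeR. Cacnb2 had 52.1, 47.1 and 59.1 in controls and 27.7, 52.5 and 26.4 in transgenic hearts, where replicate 2 lay among the controls (log2 fold change -0.57, adjusted p = 0.152, and -0.98 with adjusted p = 0.00159 without that heart).

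In the hearts labelled Myh6-tg, at day 90, the members called with the largest changes were Scn4b, Scn4a and Cacna1s, and each was at most 0.104 of its control level. Among the calcium beta subunits Cacnb2 fell and Cacnb3 rose, and the gamma subunit gene Cacng7 rose. The L-type pore Cacna1c was low in 2 hearts and above the control range in the remaining heart, Myh6-tg replicate 1.

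Here 25 members were tested and 6 called, 2 higher and 4 lower, where 18.3% of all 15298 genes tested were called, 8.96% higher and 9.38% lower. The median log2 fold change was -0.63 over the members tested and 0.03 over all genes. Of 12 pore-forming members 2 fell, and of 13 auxiliary members 2 rose and 2 fell. Without Myh6-tg replicate 1, 11 members were called, without Myh6-tg replicate 2, 3 members, and without Myh6-ctl replicate 1, 2 members. Scn4b and Scn4a were called with any single heart left out, and both also passed the study's thresholds in edgeR. With DESeq2 at these thresholds Cacna1s, Cacnb2 and Cacnb3 passed as well, 5 members in all.

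Scn4b had 39.2, 14.9 and 20.6 normalised CPM in Myh6-ctl and 1.05, 0.846 and 0.681 in Myh6-tg hearts, which rest on 49, 39 and 36 counts. The transgenic hearts lay close together and far below every control, including the low control replicate 2. The log2 fold change was -4.86 (SE 0.43, adjusted p = 0.00158), a fold of 0.0345.

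Scn4a measured 15.0, 5.64 and 12.6 normalised CPM in Myh6-ctl hearts against 1.90, 1.02 and 0.549 in Myh6-tg hearts. The groups did not overlap, and the log2 fold change was -3.26 (SE 0.55, adjusted p = 0.00949). Cacna1s had 6.02, 6.11 and 5.56 against 0.470, 0.174 and 0, from 22, 8 and 0 counts (log2 fold change -4.78, SE 0.95, adjusted p = 0.0153). Its controls differed little from each other, and every transgenic heart lay far below them. This call was lost without Myh6-ctl replicate 1 (adjusted p = 0.0578) or Myh6-tg replicate 2 (0.0571). An antisense gene on the opposite strand, Gm37759, covers 20.0% of the exonic bases of Cacna1s, and without strand information reads of the pair cannot be told apart.

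Cacnb2, the beta subunit gene with the highest mean FPKM over the 12 hearts, was at 41.6, 41.1 and 45.6 normalised CPM in controls and at 24.5, 11.8 and 11.4 in Myh6-tg hearts (log2 fold change -1.43, SE 0.31, adjusted p = 0.0195). Replicate 1 lay between the other transgenic hearts and the controls. The adjusted p was 0.000879 without it and 0.0515 to 0.0707 without any of the other 5 hearts. Cacnb3 went the other way, from 5.04, 5.90 and 7.59 to 13.6, 14.4 and 14.5 (log2 fold change 1.20, SE 0.22, adjusted p = 0.0120), and here replicate 1 lay close to the other transgenic hearts. Without Myh6-ctl replicate 1 its adjusted p was 0.0523. Cacng7 rose from 8.17, 6.45 and 8.37 to 10.9, 14.3 and 16.1 (log2 fold change 0.84, SE 0.23, adjusted p = 0.0391). Its groups did not overlap, and its adjusted p was 0.0129 without Myh6-tg replicate 1 and 0.081 to 0.145 without any of the other 5 hearts.

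Cacna1c had 121, 106 and 138 normalised CPM in Myh6-ctl hearts and 143, 32.6 and 33.8 in Myh6-tg hearts. Replicate 1 was above every control and the other transgenic hearts below every control, so that the fit over all 6 hearts gave a log2 fold change of -0.80 (SE 0.55, adjusted p = 0.347). Without replicate 1 it was -1.88 (adjusted p = 0.000974). Fits without this heart kept no Myh6-tg heart with Y-linked counts, while the controls kept theirs.

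Cacna2d1 did not pass the threshold in this model, with 121, 114 and 111 normalised CPM in controls and 120, 105 and 104 in Myh6-tg hearts (log2 fold change -0.07, SE 0.16, adjusted p = 0.789). These ranges overlapped. Cacna1g had 9.07, 6.84 and 9.19 against 2.46, 8.87 and 7.67 (log2 fold change -0.40, adjusted p = 0.567), and Cacna1a 3.89, 1.99 and 2.11 against 1.47, 1.47 and 2.20 (-0.63, adjusted p = 0.325). Both sets of ranges overlapped as well. In EIIa hearts Cacna1g had 14.4, 11.7 and 14.4 in controls and 4.12, 12.3 and 7.77 in transgenic hearts (-0.74, adjusted p = 0.159), and Cacna1a 2.87, 2.32 and 2.69 against 1.80, 1.39 and 1.74 (-0.68, adjusted p = 0.0963). Scn7a was at 39.5, 30.5 and 45.2 in Myh6-ctl and at 47.6, 77.2 and 85.8 in Myh6-tg hearts, all above the controls (log2 fold change 0.87, SE 0.26, adjusted p = 0.0549). With the replicate number as a block, along which Myh6 hearts deviated together, Scn7a was called (0.84, SE 0.23, adjusted p = 0.0476) and 7 members in all.

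**Figure D2:**
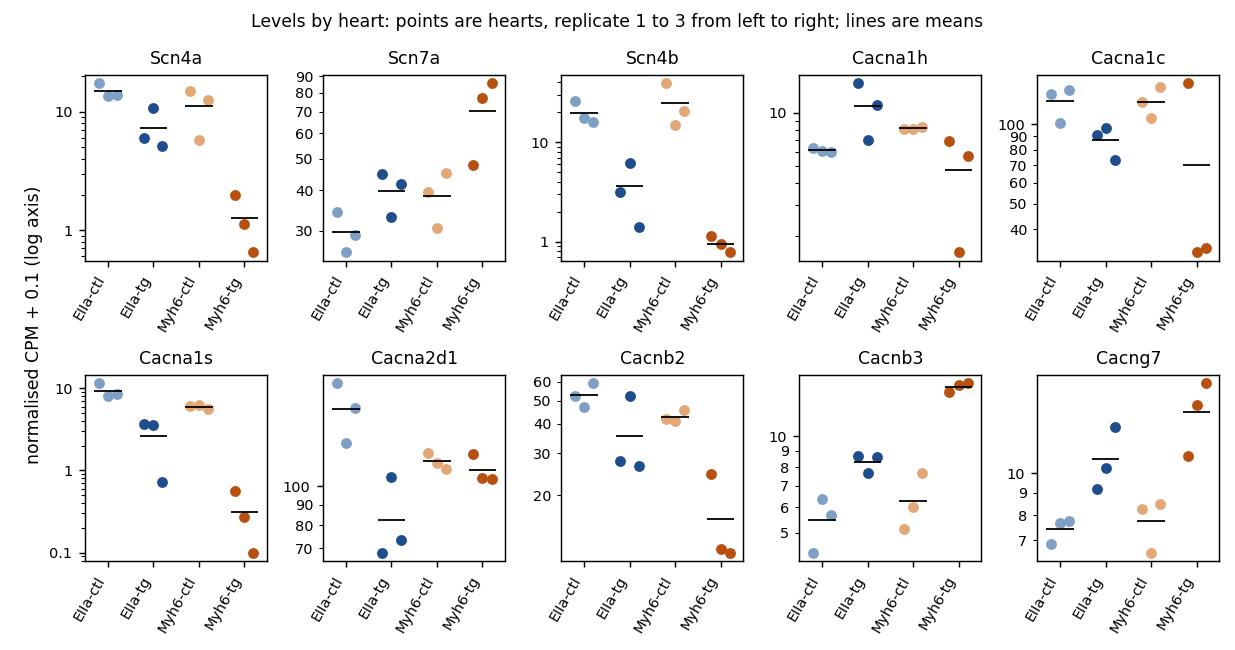
Normalised CPM plus 0.1 on log axes for 10 members, with 1 point per heart, replicates 1 to 3 from left to right within a group, and a line at the mean of each group. Scn4b and Cacna1s have no overlap between transgenic and control hearts in either model, and Myh6-tg replicate 1 is the high point of its group for Cacna1c.

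Beside these changes the summed markers of some cell types differed between groups, while those of others overlapped. Sums for pacemaker and conduction cells, smooth muscle and pericytes, and Schwann cells overlapped between transgenic and control hearts in both models. Neuron sums were 8.43 to 9.46 in EIIa-ctl and 10.6 to 12.5 in EIIa-tg hearts, and they overlapped in the Myh6 groups. Summed cardiomyocyte markers were 38814 to 47124 normalised CPM in EIIa-ctl and 19920 to 34360 in EIIa-tg hearts. They were 30388 to 40324 in Myh6-ctl and 10034 to 31405 in Myh6-tg hearts. Of these 8 genes 1 fell in EIIa-tg and 4 in Myh6-tg, and the list did not move as one. In Myh6-tg hearts Myh6, Pln, Tnni3 and Myl2 fell (folds 0.165, 0.175, 0.191 and 0.238). Tnnt2 (1.36), Actn2 (1.49), Ryr2 (0.824) and Actc1 (0.61) were not called there. Tnnt2 and Actn2 overlapped with their controls in both models. The 6 fibroblast markers summed to 1076 to 1383 in EIIa-ctl and 1790 to 2620 in EIIa-tg hearts. In Myh6-ctl they summed to 1431 to 1729 and in Myh6-tg to 2777 to 6409. The 5 endothelial markers summed to 854 to 986 in EIIa-ctl and 645 to 735 in EIIa-tg, where 3 fell, and to 522 to 1169 in Myh6-ctl and 492 to 604 in Myh6-tg, where none was called. The 5 immune markers gave 34.8 to 47.7 against 73.2 to 114 in the EIIa groups, where 3 rose, and 60.8 to 98.1 against 67.4 to 180.1 in the Myh6 groups, where none was called. The 7 atrial markers gave 141 to 385 against 538 to 839 and 181 to 1866 against 4309 to 6584. In each model 2 of them rose, Nppa and Dkk3 in EIIa-tg and Myl4 and Dkk3 in Myh6-tg. Most of each sum was Nppa, with 6518, 4171 and 4830 in Myh6-tg replicates 1 to 3. It was not called there (adjusted p = 0.0581 in edgeR). Stard10 lay below its controls in Myh6-tg hearts (fold 0.459), and Bmp10, Sln and Myl7 stayed at or under 4.26 in every heart. The part of these cell types in the changes of the members was not tested, and in whole hearts fewer cardiomyocytes cannot be told apart from less channel RNA per cardiomyocyte. Skeletal muscle is a known source of Scn4a and Cacna1s. Of its 8 markers Myog was at 0 counts in all 12 hearts, Myh1, Myh2 and Myh4 were at or near 0, and the sum was 1.27 to 3.63 in control hearts and 3.03 to 50.4 in transgenic hearts, nearly all of the highest value being Tnnt3 (48.7 in Myh6-tg replicate 1).

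When counts were instead taken per 10000 counts on the 8 cardiomyocyte markers, members differed in whether their groups still separated. For Scn4b this ratio was 3.35 to 6.10 in EIIa-ctl, 0.655 to 1.79 in EIIa-tg, 3.69 to 10.1 in Myh6-ctl and 0.333 to 0.679 in Myh6-tg hearts, without overlap in either model. Cacna1s went from 1.80 to 2.69 in EIIa-ctl to 0.311 to 1.79 in EIIa-tg, and from 1.52 to 1.83 to 0 to 0.150 in the Myh6 groups. Scn4a overlapped in the EIIa groups (2.92 to 4.12 against 2.51 to 3.09) but not in the Myh6 groups (1.40 to 4.15 against 0.547 to 0.781).

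The ratio of the main L-type pore Cacna1c overlapped between transgenic and control hearts in both models, with 26.1 to 30.9 in EIIa-ctl against 28.1 to 45.8 in EIIa-tg hearts and 26.3 to 45.5 in Myh6-ctl against 25.0 to 45.7 in Myh6-tg hearts. Cacna2d1 overlapped in the EIIa groups (33.2 to 42.8 in controls against 30.7 to 36.6) and lay above its controls in every Myh6-tg heart (28.3 to 36.5 against 38.3 to 104). Cacnb2 had 12.1 to 12.5 against 13.2 to 15.3 in the EIIa groups, where the transgenic hearts lay above the controls, and 10.2 to 15.0 against 7.79 to 11.3 in the Myh6 groups, which overlapped. Cacnb3 was above its controls on this scale in both models, with 1.00 to 1.62 against 2.20 to 4.31 and 1.30 to 2.50 against 4.34 to 14.5. Since some of the markers fell themselves, this ratio is a description and not a measure per cell.

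**Figure D3:**
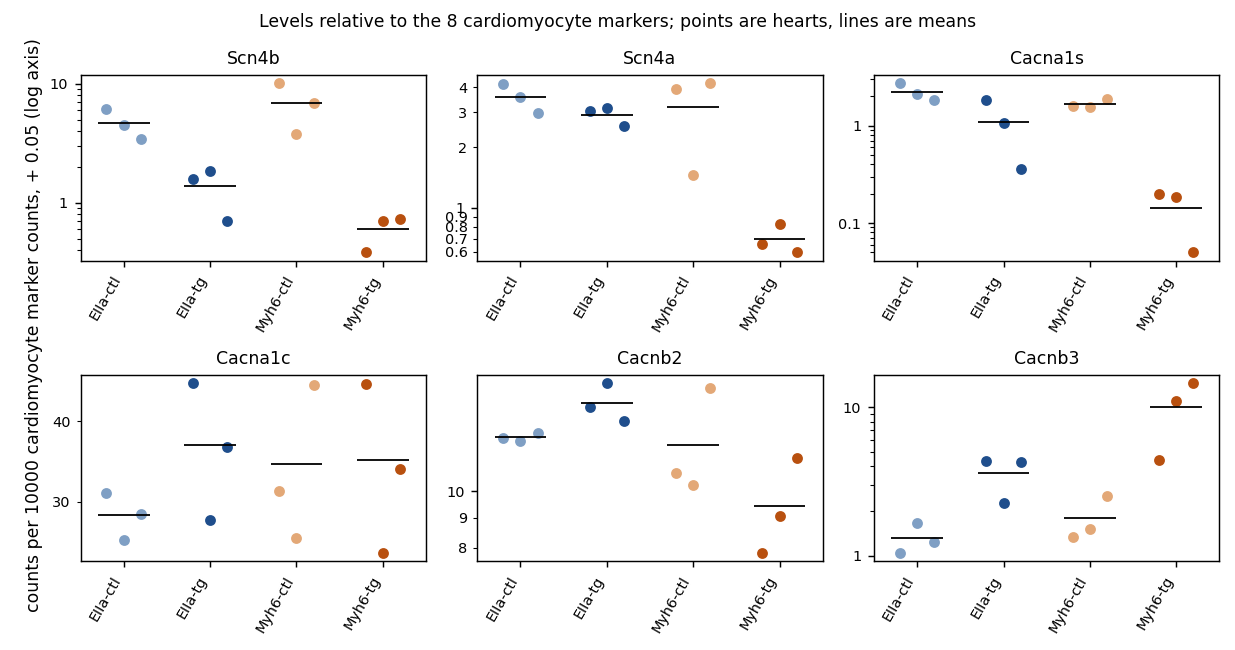
Counts of 6 members per 10000 counts on the 8 cardiomyocyte markers, plus 0.05, on log axes, with 1 point per heart, replicates 1 to 3 from left to right, and a line at the mean of each group. Scn4b lies below its controls in both models, whereas the points of Cacna1c overlap with those of their controls.

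Within a role, shares of the summed FPKM show which subunit gene made up most of the RNA. Of the calcium beta subunit genes Cacnb2 held 71.7 to 77.1% in EIIa-ctl, 47.7 to 69.0% in EIIa-tg, 65.7 to 74.7% in Myh6-ctl and 24.7 to 28.8% in Myh6-tg hearts. Its share was thus below the controls in all transgenic hearts, replicate 1 of Myh6-tg included. The gene with the largest share differed between the Myh6-tg hearts, Cacnb1 with 46.4% in replicate 1 and Cacnb3 with 48.3 and 46.0% in replicates 2 and 3. Of the L-type pores Cacna1c held 83.1 to 94.3% in all hearts. Cacna1s held 10.2 to 14.4% in EIIa-ctl, 1.38 to 7.21% in EIIa-tg, 7.27 to 10.8% in Myh6-ctl and at most 0.911% in Myh6-tg hearts. In the Myh6 groups Cacna1d, a pore known from pacemaker cells, held 0.597 to 2.01% in controls and 5.75 to 10.3% in transgenic hearts. Its own level overlapped, at 1.40, 0.544 and 2.22 normalised CPM in Myh6-ctl and 6.73, 2.52 and 2.04 in Myh6-tg hearts. It was not called by edgeR (log2 fold change 1.43, SE 0.64, adjusted p = 0.16). Of the T-type pores Cacna1g held 65.8 to 70.8% in EIIa-ctl and 21.5, 63.9 and 41.1% in EIIa-tg hearts, and 45.6 to 52.6% in Myh6-ctl and 26.1, 83.0 and 57.4% in Myh6-tg hearts, with nearly all of the rest from Cacna1h. The EIIa-tg hearts thus all lay below their controls, and the Myh6-tg hearts on both sides of theirs. These shares are not independent of each other and were not tested.

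**Figure D4:**
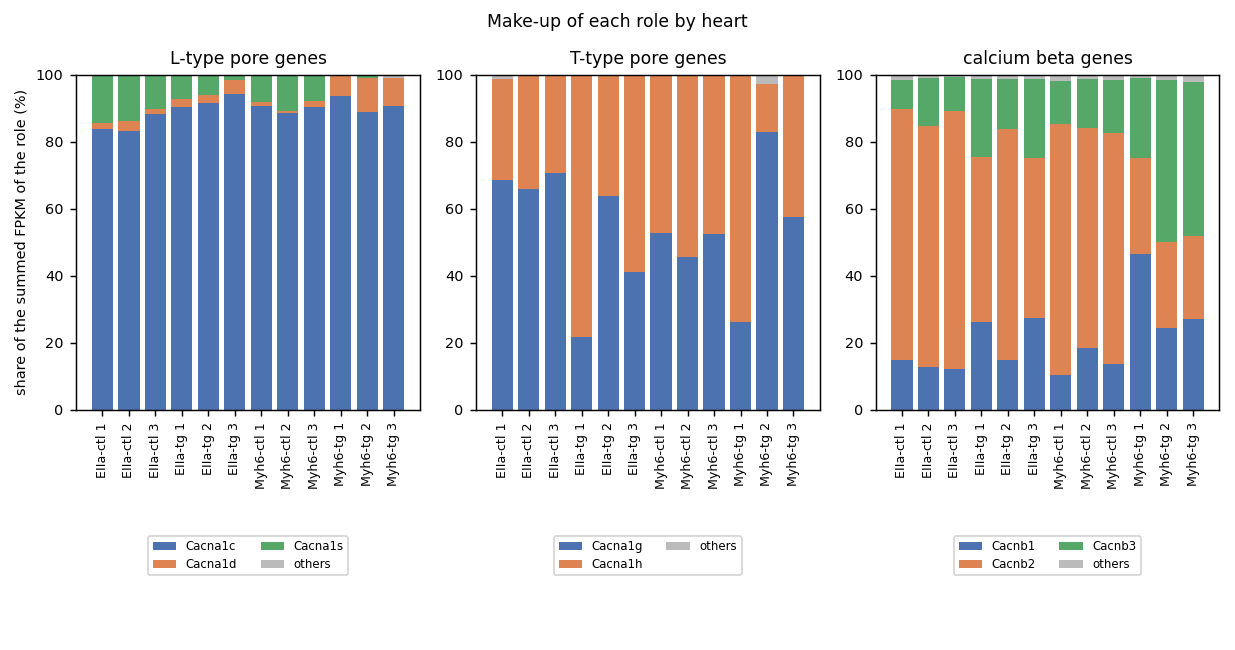
Share in percent of the summed FPKM within 3 roles, 1 stacked bar per heart, for the L-type pores, the T-type pores and the calcium beta subunits, with members that stay under 5% pooled as others. The Cacnb2 section is 47.7 to 69.0% in EIIa-tg and 24.7 to 28.8% in Myh6-tg hearts, and the Cacna1s section is at most 0.911% in Myh6-tg hearts.

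Scn4b, Scn4a and Cacna1s were the 3 members called in both transgenic comparisons, each lower in both. In EIIa-tg hearts the calls of all 3 were not kept in the fits named with their values. On GRCm38 Scn4b lies at chr9:45138395-45154152 on the plus strand, Scn4a at chr11:106318592-106353288 on the minus strand and Cacna1s at chr1:136052750-136119822 on the plus strand. They thus share no chromosome, although Scn4b has Scn2b beside it at chr9:45117782-45130070, and Scn2b had at most 1.12 normalised CPM in a heart. Because these genes moved together, the 250 bases before their RefSeq start sites were searched on both strands for 6 motifs. These were the TATA box, TATAAA, which 12.4% of all 32851 RefSeq promoters hold. The core of sites for MEF2 factors, TAAAAATA, is in 2.45% of them. The core that T-box factors bind, GGTGTGA, is in 3.33%. The motif of GATA factors, AGATAA, is in 9.99%. The E-box that muscle helix-loop-helix factors are known to bind, CAGCTG, is in 4271 of these promoters. The cyclic AMP response element, TGACGTCA, is in 1.55%. The only match in the windows of these genes was an E-box 123 bases before the start of Cacna1s. Entries were found for 30 of the 40 members. The RefSeq starts of all 3 genes lie inside their GENCODE gene spans. Shown here are those parts of the windows that lie outside GENCODE exons of the gene, from GRCm38.p6 and read 5′ to 3′ on the gene's strand, with the matched motif in capitals, at chr1:136052561-136052749 for Cacna1s, chr11:106349391-106349454 for Scn4a and chr9:45138374-45138394 for Scn4b.
Cacna1s: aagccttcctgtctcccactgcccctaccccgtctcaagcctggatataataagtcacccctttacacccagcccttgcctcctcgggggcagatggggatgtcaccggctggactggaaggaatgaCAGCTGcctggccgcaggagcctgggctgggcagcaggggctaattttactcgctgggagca
Scn4a: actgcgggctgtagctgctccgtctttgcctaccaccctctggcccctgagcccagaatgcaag
Scn4b: gtcgtccgcagcgggcaagcc

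The difference between the models was tested directly, in a fit of all 12 hearts, by subtracting the fold change of the EIIa model from that of the Myh6 model. Among 27 members tested none passed (0 called by edgeR, 6 at an unadjusted p under 0.05), where 3.92% of all 15929 genes tested were called. The lowest adjusted p-values were those of Scn4a (log2 difference -2.21, SE 0.63, adjusted p = 0.0741), Scn4b (-2.37, SE 0.69, adjusted p = 0.0813) and Cacna2d1 (0.85, SE 0.25, adjusted p = 0.0868). The larger fall of Scn4b and Scn4a in Myh6-tg hearts was therefore not beyond the error at this threshold. DESeq2 called 4 members, namely Scn4a, Scn4b, Cacna1s and Cacna2d1. Cacna1s (-2.93, adjusted p = 0.145) and Cacna1h (-1.64, adjusted p = 0.146) followed. Without Myh6-tg replicate 1, 5 members were called (Scn4a, Cacna1s, Cacna1c, Cacna1h and Cacnb2). Without EIIa-tg replicate 2 it was Cacna2d1 alone, without EIIa-tg replicate 3 Scn4b alone and without Myh6-ctl replicate 2 Scn4a alone. Cacna1b, a neuronal N-type pore with at most 25 counts in a heart, also had an unadjusted p under 0.05 (adjusted p = 0.119).

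**Figure D5:**
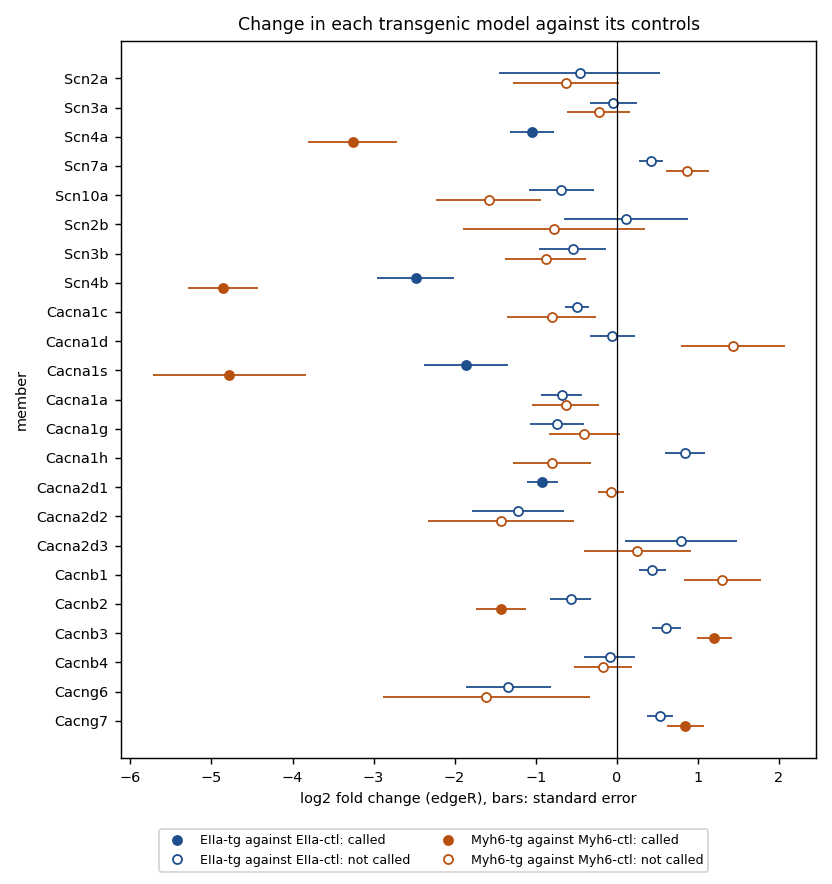
Log2 fold change of 23 members tested in both models, with the standard error of the fit as bars, EIIa-tg in blue and Myh6-tg in orange, filled where the adjusted p is under 0.05. Scn4b (-2.48 and -4.86), Scn4a (-1.05 and -3.26) and Cacna1s (-1.86 and -4.78) are filled in both models.

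Control hearts of the models were compared for the levels of these genes at day 30 and day 90, where age, the Myh6 Cre allele and the oil injection cannot be told apart. None of 26 members tested was called by edgeR (0 called, 5 at an unadjusted p under 0.05), nor were more than 0.0334% of all genes tested. Cacna1g was lower in each Myh6-ctl heart than in any EIIa-ctl heart (-0.69, SE 0.19, adjusted p = 0.211), as was Cacna1s (-0.65, SE 0.20, adjusted p = 0.262). Scn4b did not separate the control groups, at 15.8 to 25.8 in EIIa-ctl and 14.9 to 39.2 in Myh6-ctl hearts.

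The following members were not called. Of the sodium pores Scn3a stayed between 1.28 and 2.52 normalised CPM. Scn10a, a gene of sensory neurons, had 0.592 to 1.39 in the EIIa groups, and 0.882 to 1.37 in Myh6-ctl against 0.195 to 0.705 in Myh6-tg hearts, without overlap in the latter pair (log2 fold change -1.58, SE 0.65, adjusted p = 0.129). Cacnb1 was higher in all transgenic than in control hearts of both models (0.44, adjusted p = 0.107, and 1.30, adjusted p = 0.0957), with the highest value, 23.2, in Myh6-tg replicate 1 against 8.05 and 7.33. Cacng6, a gamma subunit gene, lay below its controls in every EIIa-tg heart (-1.34, SE 0.52, adjusted p = 0.108) and overlapped in the Myh6 groups. The sodium channel beta subunit gene Scn3b lay below its controls in every transgenic heart of both models (-0.54, adjusted p = 0.389, and -0.88, adjusted p = 0.258, in edgeR). Members left out of a comparison by the filter, 15 in each model, had at most 32 counts in any heart.

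Known partners of the channels were read from lists chosen with earlier results of these data known. Of 15 sodium channel partners none rose and 4 fell in EIIa-tg hearts, or 26.7% called beside 17.0% of all genes. By lowest p these were the anchoring protein gene Ank2 (log2 fold change -0.98, adjusted p = 0.0227), the kinase gene Camk2d (-0.55, adjusted p = 0.0251), Gpd1l (-0.53, adjusted p = 0.0318) and Ank3 (-0.60, adjusted p = 0.0393). In Myh6-tg hearts 2 of the 15 rose and 3 fell, or 33.3% called beside 18.3% of all genes. The lowest p was that of Rangrf, whose product helps to bring sodium channels to the membrane (-2.26, SE 0.26, adjusted p = 0.00337), followed by Ank2 (-1.32, adjusted p = 0.0144) and Slmap (0.76, adjusted p = 0.0223).

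Of 16 calcium channel partners tested, 1 rose and 4 fell in EIIa-tg hearts (31.2% called beside 17.0% of all genes). In Myh6-tg hearts 1 rose and 1 fell, and their 12.5% called was below the 18.3% of all genes. Nothing particular to either list is read from these shares. Akap5 and Gem were called in both models. Akap5 is an anchor of protein kinase A (-2.38, adjusted p = 0.0178, and -3.94, adjusted p = 0.0148), and Gem a small GTPase that inhibits L-type channels through their beta subunit (0.97, adjusted p = 0.0281, and 1.17, adjusted p = 0.0408). Akap7 (-0.58, adjusted p = 0.0367) and Akap6 (-0.39, adjusted p = 0.0418) also fell in EIIa-tg hearts. The median log2 fold change of the sodium list was -0.32 and -0.19 and that of the calcium list 0.09 and -0.16 in EIIa-tg and Myh6-tg hearts.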

How the data were processed

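RNA of 12 mouse hearts was sequenced by the authors as paired-end reads from libraries that do not mark strand. Per the study's methods reads were aligned to GRCm38, whereas the processing notes also list GRCm39 and mm10, and name HISAT2 2.0.4, StringTie 2.2.1 and DESeq2. The deposited table gives, per gene and heart, raw read counts and FPKM values (scaled to transcript length and library size) made by the authors. Samples were grouped by the labels' titles. The labels number the replicates of a group as biological, and p-values measure the spread between these hearts.

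The 40 members were selected by symbol. The members, the partner and marker lists and the rule for named genes were chosen with earlier results of these data known. By that rule members called, the leading member of each role by mean FPKM, Scn4b and Cacna1c are given in full, and up to 4 called partners of lowest p per list and comparison are named. Scn3a, Scn7a, Scn10a, Scn2b, Scn3b, Cacna1b, Cacna1d, Cacna1h, Cacnb1 and Cacng6 were picked after their values were seen. Some genes that enter the counts, members and partners, are not reported here by name, value or figure.

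Counts were tested across all genes with edgeR 4.0.16 (filterByExpr, TMM, quasi-likelihood F test, two-sided, Benjamini-Hochberg adjustment, R 4.3.3), after a check on simulated counts. SE is the log2 fold change divided by the square root of F. Depth was 38343106 to 50969834 counts per heart, and 3 counts, taken as the floor, correspond to 0.0589 to 0.0782 CPM. Replicates of a group differed by 20.6 to 313 in chi-square per degree of freedom, so none was a repeat deposit. Same-numbered hearts of the Myh6 groups deviated together (correlations 0.284, 0.186 and 0.166), over the limit of 0.1 set for trying the number as a block. The titles number the hearts and do not name pairs. Replicate 1 was the heart with Y-linked counts in both groups (5245 in Myh6-ctl and 7307 in Myh6-tg). Pairs therefore cannot be told apart from this shared difference, and the main fits use no pairing. Alternatives were DESeq2 1.42.0, RLE factors, other filters, all 12 hearts in one fit, the replicate block, a covariate for Y-linked counts, mitochondrial genes or unannotated loci left out, limma 3.58.1 on log2(FPKM + 1) or log2(FPKM + 0.1), the study's thresholds, each heart left out and, chosen after seeing the data, DESeq2 at the study's thresholds. Positions and overlaps are from GENCODE M21, and upstream sequences from RefSeq on GRCm38.p6.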

Additional observations from a re-analysis of the deposited data

Results flagged for a closer look

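Cacna1h, a T-type calcium pore, was picked because its transgenic hearts all lay above the control mean in the EIIa model and below it in the Myh6 model. Neither change was called by edgeR. In Myh6-ctl hearts it had 8.01, 8.03 and 8.24 normalised CPM and in Myh6-tg hearts 6.83, 1.52 and 5.60, with replicate 2 farthest below. The log2 fold change there was -0.80 (SE 0.48, adjusted p = 0.285). As the log2 ratio to the mean normalised CPM of the controls, with 0.1 added to both, the 3 EIIa-tg hearts lay 0.19 to 1.27 above. The 3 Myh6-tg hearts lay 0.24 to 2.34 below theirs. The log2 difference between the models was -1.64 (SE 0.59), which did not pass the test of the difference in edgeR (adjusted p = 0.146).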

How the results depend on the processing

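In EIIa-tg hearts 6 members were called, against 10 by DESeq2, 10 with a filter of 1 CPM in 3 hearts, 2 with all 12 hearts in one fit, 0 by limma on log2(FPKM + 1), 2 on log2(FPKM + 0.1), 10 with a filter of 0.5 FPKM, 4 with the Y-linked covariate, and at the study's thresholds 0 by edgeR and 3 by DESeq2, and leaving out a heart gave 0 to 13. In Myh6-tg hearts 6 became 10 with all 12 hearts in one fit and at the study's thresholds 2 by edgeR and 5 by DESeq2, with 2 to 11 when a heart was left out. For the difference between the models DESeq2 gave 4 and 2 of these at the study's thresholds, a Y-linked covariate 1, each of the 3 limma fits 1, and leaving out a heart 0 to 5. For the control groups DESeq2 gave 1 and leaving out a heart 0 to 0. DESeq2 at the study's thresholds was added after seeing the data. In EIIa-tg hearts the number called over all genes moved as well. It was 2527 in the main fit, 3539 by DESeq2 and 2582 with the filter of 1 CPM. It was 227 with all 12 hearts in one fit and 1 with the replicate number as a block. The cause of these changes was not tested. With the replicate number as a block, 0 members were called in EIIa-tg hearts by edgeR (14 had an unadjusted p under 0.05 without the block), where the numbers do not pair the hearts (correlations 0.0636, -0.0662 and -0.0491, and only replicate 1 correlated best with its own number). In Myh6-tg hearts the block gave 7 and changed no call but that of Scn7a. The direction reversed in Myh6-tg hearts for Cacna2d1 under limma (0.37 on log2(FPKM + 1) with and without the filter and 0.39 on log2(FPKM + 0.1)). Of the single-gene values recomputed, 138 of 189 in EIIa-tg and 167 of 189 in Myh6-tg hearts kept direction and side of the threshold, as did 128 of 142 for the difference and 76 of 76 for the controls. The fit over all 12 hearts is no alternative for the difference, which used them already. With 3 hearts a group, one heart can decide a call. Members at a few counts, such as Cacna1b, cannot be read at this depth.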
